A study of Homo sapiens with 32 samples.

Results

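The ERK feedback genes described here are DUSP4, DUSP5, DUSP6, SPRY1, SPRY2, SPRY4, SPRED1, SPRED2, ETV4 and ETV5. They are defined by name and not by a threshold on a measured value, although earlier results of these data were known when they were picked, and make up 10 of the 18854 genes, and 24 of the 42587 transcripts, that could be matched in the 32 transcript tables. RNA came from 4 established human cancer lines, namely the melanoma line A375, the colorectal line DLD1 and the breast lines Cal51 and MDA-MB-231. Every line was used as wild-type cells, which the study calls sensitive to inhibition of the kinase CDK11, and as cells carrying G579S, which it calls resistant. Both were given OTS964, a small-molecule inhibitor of CDK11, at 100 nM, or its solvent DMSO, for 6 h. All cells grew in DMEM with serum, and each of the 16 groups of line, genotype and treatment held 2 libraries. The sources used here do not say whether the G579S cells of a line are 1 clone, nor whether a group's libraries stem from separate cultures, so p-values speak only of the spread among these libraries, possibly a technical one.

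In the ERK pathway, growth factor receptors switch on RAS, which recruits RAF, and RAF activates MEK and then ERK, a kinase that enters the nucleus and changes transcription. Among the genes that ERK switches on are its own brakes, so their messages are commonly read as a gauge of pathway output. Some brakes are phosphatases that take the activating phosphates off ERK (DUSP4, DUSP5 and DUSP6), and others are adaptor-like proteins that hold back RAS and RAF (the Sprouty genes SPRY1, SPRY2 and SPRY4 and the SPRED genes SPRED1 and SPRED2). ETV4 and ETV5 encode ETS-family transcription factors that carry the signal further into gene expression.

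Upstream sequence of members was taken from RefSeq promoter windows on GRCh38.p14, which held 10 windows for 6 of the 10 members (SPRED1, SPRED2, SPRY1, SPRY2, SPRY4 and DUSP6). SPRED2 is shown because it fell with OTS964 in all 4 wild-type lines and changed its transcript shares, and SPRY2 because it passed the test in none of them. All are written 5′ to 3′ on the gene's strand, which is the minus strand for both genes, in lower case with motif matches in capitals. The outer SPRED2 window, chr2:65432638-65432849, lies upstream of the gene, with bases in annotated exons left out. The inner one, chr2:65366779-65367028, lies within the gene, outside annotated exons, upstream of a second listed start. The SPRY2 window, chr13:80341127-80341376, lies directly upstream of the gene.
SPRED2 outer window: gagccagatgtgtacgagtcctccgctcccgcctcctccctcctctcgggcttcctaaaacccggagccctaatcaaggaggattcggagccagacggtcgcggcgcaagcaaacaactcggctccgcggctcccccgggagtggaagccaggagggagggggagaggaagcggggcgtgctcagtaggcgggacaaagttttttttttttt
SPRED2 inner window: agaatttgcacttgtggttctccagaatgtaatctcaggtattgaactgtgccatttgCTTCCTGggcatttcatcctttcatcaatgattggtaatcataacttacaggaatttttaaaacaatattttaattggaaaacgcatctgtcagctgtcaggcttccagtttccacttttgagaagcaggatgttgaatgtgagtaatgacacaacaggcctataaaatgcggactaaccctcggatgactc
SPRY2 outer window: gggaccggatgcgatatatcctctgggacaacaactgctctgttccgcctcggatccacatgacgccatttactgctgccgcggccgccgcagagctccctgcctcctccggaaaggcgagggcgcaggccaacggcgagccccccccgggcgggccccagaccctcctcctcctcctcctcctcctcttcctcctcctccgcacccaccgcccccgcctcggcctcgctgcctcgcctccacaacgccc
On both strands of the 250 bases upstream of each start, an ETS-type motif spelled CAGGAAG occurred in 4 of the 10 windows (SPRED1, SPRED2, SPRY1 and SPRY2) and in 10.5% of all 35116 promoter windows. The capitals in the inner SPRED2 window are its reverse complement. The other ETS-type spelling, CCGGAAG, occurred in 1 window, of SPRY1, and in 8.52% of all windows. That SPRY1 window, which also holds the CAGGAAG match, and the SPRED1 window begin inside annotated exons of their genes. The SPRY2 window with CAGGAAG, chr13:80339660-80339909, is not the one shown. The AP-1 letters TGANTCA and the CRE letters TGACGTCA occurred in none of the 10, against 6.57% and 1.65% of all windows.

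Libraries held between 16091376 and 29742687 estimated reads, of which 85.62% to 89.37% fell on matched transcripts. Levels are given as CPM, the depth-scaled read count after TMM scaling, a correction for differing composition of the libraries. With OTS964, wild-type libraries had TMM factors of 0.701 to 0.832, against 0.96 to 1.166 for all others, so the choice of scale matters for wild-type responses. The median log2 change of all genes with OTS964 in wild-type cells was -0.06 by TMM, -0.65 by library totals and -0.46 on log2(TPM + 1). Libraries labelled DLD1 wild-type went against their label: under DMSO they held SOX10, a melanocyte lineage factor, at 441 and 411 TPM and the intestinal factor CDX2 at 2.11 and 2.69 TPM. In DLD1 G579S, SOX10 stood at 0.606 and 1.02 TPM and CDX2 at 77.3 and 75.0 TPM, and in A375 wild-type SOX10 stood at 340 and 355 TPM. The 12 melanocyte markers summed to 1380 TPM in both libraries labelled DLD1 wild-type DMSO, 923 to 943 TPM in A375 wild-type and 37.5 to 40.3 TPM in DLD1 G579S. The 12 colorectal markers summed to 844 to 859 TPM, 555 to 556 TPM and 11800 to 11900 TPM in the same groups. In bulk RNA, fewer cells of a type and less RNA per cell cannot be told apart. Within some groups 1 library also stood apart from its replicate: genes over 4-fold apart between replicates made up 8.05% in wild-type MDA-MB-231 OTS964 and 7.03% in the group labelled DLD1 wild-type OTS964, against 2.28% to 4.81% elsewhere. The first library of each of these groups and the second Cal51 G579S DMSO library, chosen after their values were seen, were left out together as a check. With 2 libraries a group, it cannot be told which of a pair is the odd one. Calls made without these libraries are no independent support.

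In wild-type cells with OTS964, feedback genes moved in both directions, as did genes at large. The phosphatases DUSP5 and DUSP6 rose, and SPRY4, both SPRED genes and ETV5 fell. DUSP4 rose by TMM but not by library totals or on TPM scales. Across lines, 4 of the 10 members were higher (DUSP4, DUSP5, DUSP6 and SPRY1) and 4 were lower (SPRY4, SPRED1, SPRED2 and ETV5) at an adjusted p under 0.05. Among all 13676 genes tested, 61.8% passed, 29.9% higher and 32.0% lower, so a split in both directions was not particular to the members. By library totals 2 members were higher and 5 lower, where 14.1% and 49.7% of all genes were, and on log2(TPM + 1) 2 were higher and 6 lower, where 7.58% and 58.3% were. The test was edgeR's quasi-likelihood F test with the line as a block and Benjamini-Hochberg adjustment over all genes. Within single lines, 12 of the 40 pairs of a member and a line were higher and 14 lower, where 23.0% and 25.7% of all pairs of a gene and a line were. By line, 6 members passed in A375 (45.8% of all genes), 6 in Cal51 (52.8%), 7 under the DLD1 label (50.0%) and 7 in MDA-MB-231 (46.5%).

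**Figure D1:**
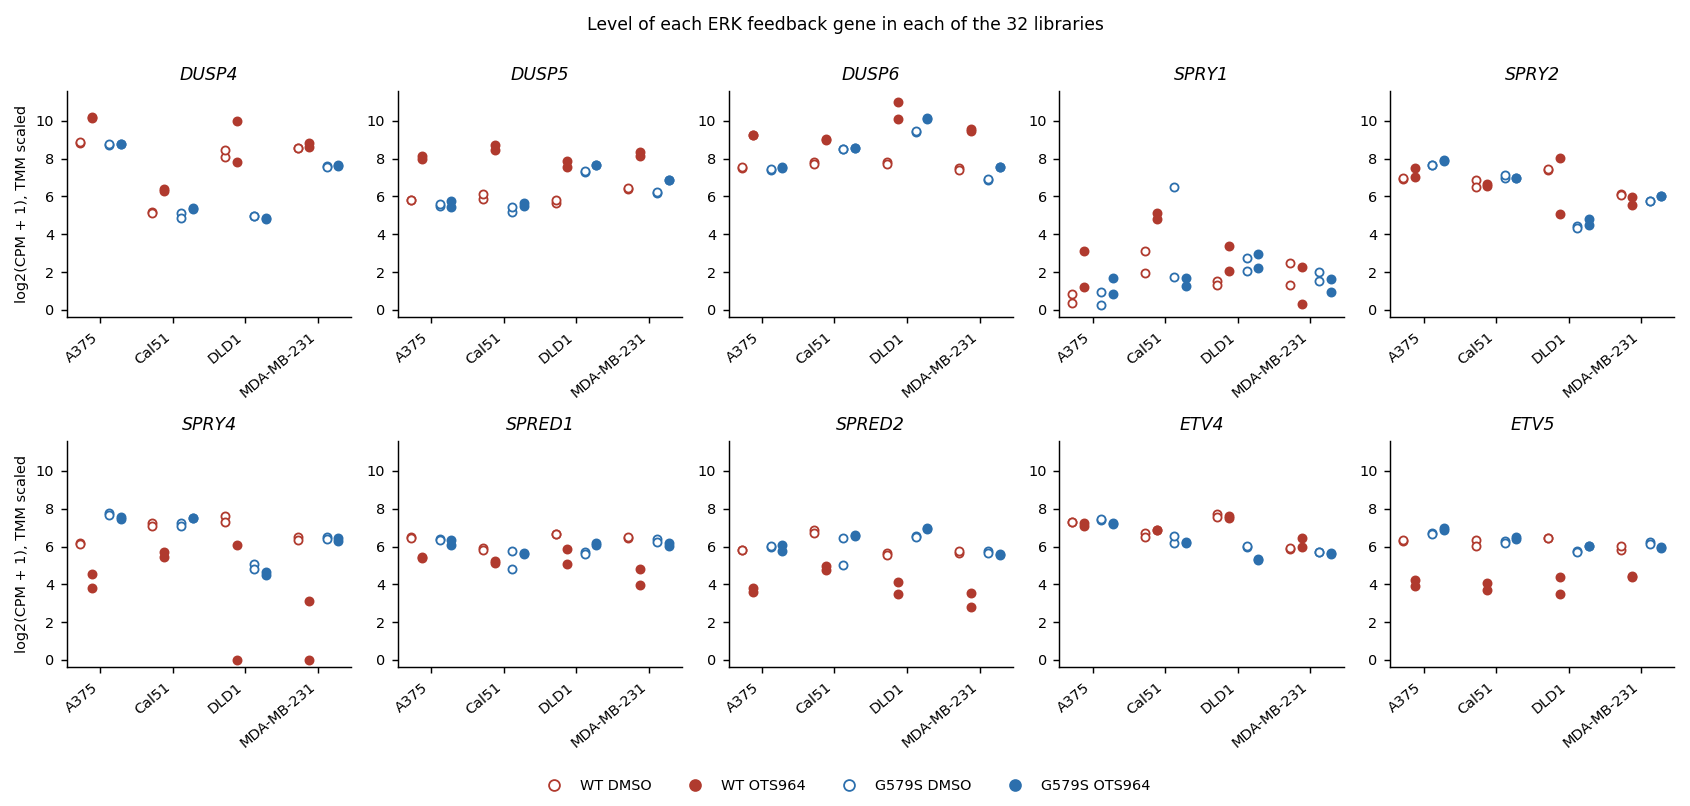
Level of each of the 10 genes in each of the 32 libraries, as log2(CPM + 1) after TMM scaling on the vertical axis, by line on the horizontal axis; red is wild-type, blue G579S, open DMSO and filled OTS964. Filled red points lie above open red points in all 4 lines for DUSP5 and DUSP6 and below them for SPRY4, SPRED1, SPRED2 and ETV5; 2 SPRY4 libraries stand at 0.

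Among the phosphatases, DUSP5, a nuclear enzyme specific for ERK, had the most even increase. Its level under DMSO ranged from 49.9 to 86.8 CPM, median 56.3, over 8 wild-type libraries, and under OTS964 from 190 to 415 CPM, median 281. All 8 treated libraries lay above all 8 controls. The log2 fold change was 2.22 ± 0.12 (SE; edgeR adjusted p = 4.2e-09), and by line it was 2.26 in A375, 2.58 in Cal51, 2.01 in the libraries labelled DLD1 and 1.84 in MDA-MB-231. DUSP6, the cytoplasmic ERK phosphatase, ranged from 171 to 227 CPM, median 196, under DMSO and from 506 to 2070 CPM, median 657, under OTS964. Here too no treated library reached down to a control. Its log2 fold change was 2.02 ± 0.21 (edgeR adjusted p = 9.3e-07). By line, DUSP6 changed by 1.23 in Cal51, 1.74 in A375, 2.06 in MDA-MB-231 and 2.87 in the libraries labelled DLD1. There the treated libraries held 2070 and 1080 CPM, and no other wild-type library held more than 759 CPM. In Cal51 the size of the DUSP6 change depended on the scale. It went from 227 and 209 CPM to 506 and 517 CPM, but from 157 and 143 TPM to only 177 and 178 TPM. A375 went from 107 and 111 TPM to 228 and 232 TPM.

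DUSP4, a nuclear phosphatase of ERK and related kinases, ranged from 0.17 to 1.32 in its log2 change by line. In A375 it went from 451 and 475 CPM to 1170 and 1150 CPM, and in Cal51 from 34.8 and 33.8 CPM to 81.7 and 78.5 CPM. In the libraries labelled DLD1 the controls stood at 268 and 357 CPM and the treated ones at 224 and 1000 CPM. MDA-MB-231 held 380 and 378 CPM under DMSO and 459 and 392 CPM under OTS964. Treated libraries thus exceeded controls in A375, Cal51 and MDA-MB-231 and overlapped them in the DLD1 label, where the first treated library is 1 of those that stand apart. Across lines the log2 fold change was 0.97 ± 0.26 (edgeR adjusted p = 0.0047) and 1.22 without those libraries. Within MDA-MB-231 it was 0.17 ± 0.35 (adjusted p = 0.76). By library totals it was 0.38 (adjusted p = 0.19), and on log2(TPM + 1) by limma -0.01 (adjusted p = 0.99).

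The Sprouty genes split. SPRY4, which blocks RAF activation downstream of receptors, fell in the fit across lines by 2.49 ± 0.78 on the log2 scale (edgeR adjusted p = 0.012). Wild-type A375 went from 72.0 and 70.4 CPM to 22.0 and 12.8 CPM, and Cal51 from 152 and 135 CPM to 50.7 and 43.3 CPM. In the libraries labelled DLD1 the controls stood at 192 and 155 CPM, and the treated libraries at 0, as listed, and 66.7 CPM. MDA-MB-231 went from 90.8 and 81.3 CPM to 0, as listed, and 7.6 CPM. All 8 treated libraries lay below all 8 controls, but both zeros belong to libraries that stand apart, and the estimate was -1.91 without them. SPRY2, a close relative that acts at the same step, ranged from 66.1 to 174 CPM, median 117, under DMSO and from 32.3 to 260 CPM, median 96.6, under OTS964. Its log2 fold change was -0.02 ± 0.29 (adjusted p = 0.96), with a range of 2 SE from -0.60 to 0.56, and its libraries overlapped between treatments across lines. On log2(TPM + 1) it was -1.03 (limma adjusted p = 0.012). The 2 treated libraries of the DLD1 label held SPRY2 at 32.3 and 260 CPM, on either side of their controls at 166 and 174 CPM.

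SPRY1 was scarce in nearly all libraries, so its change rests on few reads. Under DMSO, wild-type libraries held 0.302 to 7.75 CPM, median 1.70, and under OTS964 0.254 to 34.2 CPM, median 5.72. The highest values were Cal51 with OTS964, at 26.8 and 34.2 CPM against 2.79 and 7.75 CPM in its controls. The fit across lines gave a log2 fold change of 1.84 ± 0.70 (edgeR adjusted p = 0.033). The call was lost in 9 of the 16 fits that left out 1 library, which gave 1.39 to 2.21, by library totals, at 1.22 (adjusted p = 0.12), and at 1.75 (adjusted p = 0.12) when libraries labelled DLD1 were left out.

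Both SPRED genes, membrane-bound inhibitors that bring neurofibromin to RAS, fell. SPRED2 ranged from 45.3 to 117 CPM, median 54.1, under DMSO and from 6.09 to 30.1 CPM, median 12.2, under OTS964 in wild-type cells, with no overlap. The log2 fold change was -2.10 ± 0.17 (edgeR adjusted p = 6.6e-08), and it passed in each line, between -1.82 in the DLD1 label and -2.61 in MDA-MB-231. With counts scaled for transcript length it was -0.98 (adjusted p = 0.0023), and with curated identifiers only -3.23 (adjusted p = 8.5e-09). Both settings treat its transcripts differently, and these are described further on. SPRED1 ranged from 55.7 to 99.4 CPM, median 87.8, under DMSO and from 14.6 to 56.7 CPM, median 35.6, under OTS964. Treated and control values of SPRED1 overlapped over all lines but not within any 1 line. Its log2 fold change was -1.18 ± 0.21 (adjusted p = 0.00018), from -0.70 in Cal51 to -2.07 in MDA-MB-231.

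The pair of ETS factors moved unequally. ETV5 ranged from 56.0 to 85.6 CPM, median 78.8, under DMSO and from 10.1 to 20.7 CPM, median 16.5, under OTS964 in wild-type cells, so the treated libraries kept well below the controls. The log2 fold change was -2.15 ± 0.15 (edgeR adjusted p = 2e-08). By line it was -2.33 in A375, -2.42 in Cal51, -2.50 in the DLD1 label and -1.56 in MDA-MB-231. ETV4 ranged from 57.1 to 209 CPM, median 129, under DMSO and from 61.0 to 194 CPM, median 126, under OTS964, with overlapping libraries. Its log2 fold change was 0.16 ± 0.08 (adjusted p = 0.088), but by library totals it was -0.44 (adjusted p = 0.00026) and on log2(TPM + 1) -0.70 (limma adjusted p = 1.6e-06), so its direction depends on the scale. Of the other members, DUSP5 and DUSP6 stayed higher in the fit across lines, and SPRY4, SPRED1, SPRED2 and ETV5 stayed lower, under each of these scales.

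**Figure D2:**
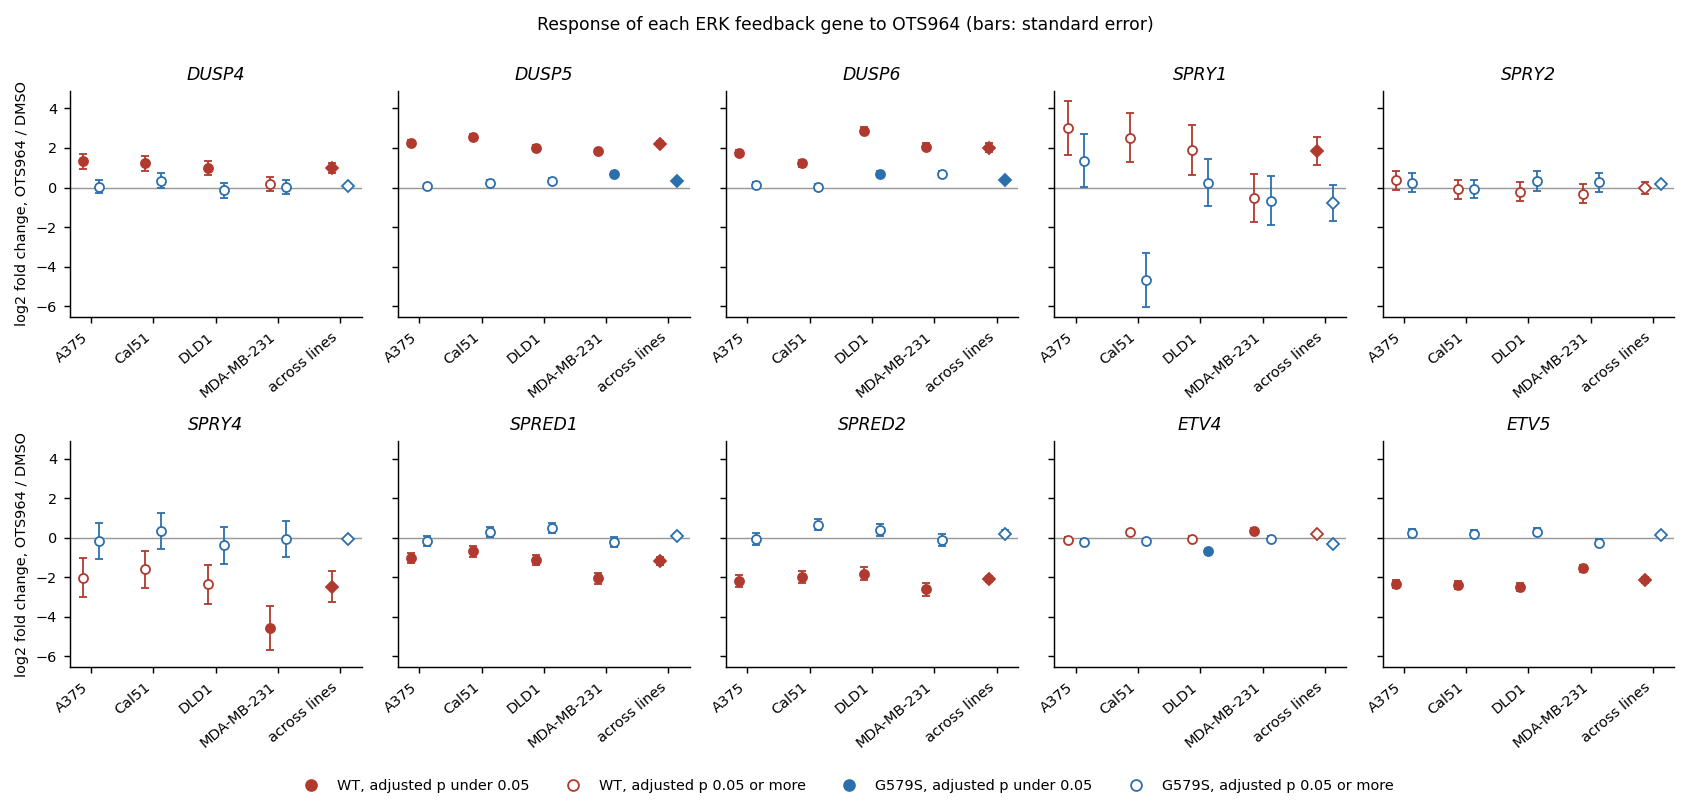
Log2 fold change of OTS964 over DMSO for each gene (vertical axis), in each line and across lines (horizontal axis). Red is wild-type, blue G579S, bars are approximate standard errors derived from the F test, and filled symbols passed an adjusted p of 0.05. Wild-type DUSP5 lies between 1.84 and 2.58 by line, while G579S values mostly lie near 0. DUSP4, ETV4 and the size of the DUSP6 change in Cal51 depend on the scale, as stated in the text.

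In G579S cells the same treatment left most members near their controls. Across lines only DUSP5 and DUSP6 passed, both higher, which is 2 of 10 members where 2.82% of the 13984 genes tested passed (1.37% higher and 1.46% lower). DUSP5 ranged from 35.7 to 162 CPM, median 59.2, under DMSO and from 43.2 to 202 CPM, median 84.6, under OTS964, a log2 fold change of 0.32 ± 0.08 (edgeR adjusted p = 0.045). DUSP6 ranged from 117 to 696 CPM, median 266, and from 184 to 1140 CPM, median 281, a log2 fold change of 0.38 ± 0.09 (adjusted p = 0.035). Treated libraries lay above their controls in all 4 lines for DUSP6 and in 3 of 4 for DUSP5. SPRY2 and ETV5, which did not pass, also lay above in 3 lines each, and ETV4 lay below in 3. How often this holds among all genes was not computed. Neither call held without the DLD1 libraries, where DUSP5 was at 0.32 (adjusted p = 0.24) and DUSP6 at 0.28 (adjusted p = 0.29). Leaving out 1 library at a time gave 0.28 to 0.37 for DUSP5, losing the call in 14 of 16 fits, and 0.35 to 0.41 for DUSP6, losing it in 10 of 16. By library totals and on log2(TPM + 1), DUSP5 did not pass, at 0.21 and 0.20 (adjusted p = 0.10 by edgeR and 0.098 by limma), and ETV4 passed as lower, at -0.40 on both (adjusted p = 0.03 and 0.026). DESeq2 called 3 members higher and 1 lower, where it called 6.29% of all genes higher and 6.47% lower, more than edgeR did. A replicate block left 0 members. The other 8 members had log2 fold changes between -0.77 (SPRY1) and 0.20 (SPRED2), with edgeR adjusted p-values of 0.064 (ETV4) or more. SPRY1 was at 0.13 without the 3 libraries that stand apart, among them a Cal51 G579S DMSO library with 89.9 CPM.

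Of the 40 pairs of a member and a G579S line, 2 were higher and 1 lower, where 2.90% and 3.33% of all such pairs were. DLD1 was the one with a broad response, in which 23.5% of all genes passed, against 0.657% in A375, 0.391% in Cal51 and 0.307% in MDA-MB-231. In DLD1 G579S, DUSP6 rose from 691 and 696 CPM to 1140 and 1110 CPM (0.70 ± 0.16, edgeR adjusted p = 0.0041). ETV4 fell there from 62.9 and 63.2 CPM to 38.0 and 39.9 CPM (-0.70 ± 0.13, adjusted p = 0.00058). In MDA-MB-231 G579S, DUSP5 rose from 71.7 and 75.4 CPM to 117 CPM in both treated libraries (0.67 ± 0.13, adjusted p = 0.024), a call lost without any 1 of these 4 libraries (0.63 to 0.71). DUSP6 in that line went from 117 and 121 CPM to 191 and 189 CPM, which missed the threshold (0.68 ± 0.17, adjusted p = 0.097). No member passed in A375 or Cal51 G579S by edgeR. At an unadjusted p under 0.05 there were 0 and 2, and DESeq2 called 0 and 1, counts given without the shares of all genes.

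The responses of both genotypes were then compared directly, as the wild-type response minus the G579S response, averaged over lines in 1 fit of all 32 libraries. By that test 9 of the 10 members differed, all except SPRY2, where 53.0% of the 14318 genes tested differed (25.4% higher and 27.6% lower). DUSP5 differed by 1.84 ± 0.09 (edgeR adjusted p = 2.1e-12), DUSP6 by 1.59 ± 0.12 (6.8e-10) and DUSP4 by 0.85 ± 0.25 (0.0079). DUSP4 did not pass by library totals, at 0.42 (adjusted p = 0.20), or on log2(TPM + 1), at 0.05 (limma adjusted p = 0.90). On the lower side were ETV5 at -2.32 ± 0.14 (edgeR adjusted p = 3e-11), SPRED2 at -2.36 ± 0.22 (1.6e-08), SPRED1 at -1.34 ± 0.18 (3e-06) and SPRY4 at -2.56 ± 0.68 (0.003). SPRY1 differed by 2.66 ± 0.89 (adjusted p = 0.015), a value that contains the second Cal51 G579S DMSO library and was 1.59 (adjusted p = 0.084) without it and 1.22 (limma adjusted p = 0.11) on log2(TPM + 1). ETV4 differed by 0.40 ± 0.09 (adjusted p = 0.00072), but by library totals it was -0.03 (adjusted p = 0.92) and on log2(TPM + 1) -0.30 (limma adjusted p = 0.0016). For SPRY2 the difference was -0.25 ± 0.34 (adjusted p = 0.65), with a range of 2 SE from -0.92 to 0.42. Without the DLD1 libraries of both genotypes, DUSP5 and DUSP6 stood at 1.90 and 1.39, and SPRED2 and ETV5 at -2.41 and -2.16. Within single lines, the genotypes' responses differed for 4 members in A375 (33.9% of all genes), 7 in Cal51 (45.8%), 6 under the DLD1 label (36.7%) and 6 in MDA-MB-231 (26.5%). DUSP5, DUSP6, SPRED2 and ETV5 were among them in each line. All these comparisons use the same wild-type libraries and are not independent of each other.

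Wild-type lines did not respond alike. An F test of equal responses in the 4 wild-type lines passed for 4 of the 10 members (DUSP5, DUSP6, SPRED1 and ETV5), where 26.7% of all genes passed. Without the 3 libraries that stand apart it passed for 9 of 10. That count follows from libraries chosen after their values were seen. It has no share of all genes beside it and cannot be read against 26.7%. The strongest inequality was that of DUSP6 (edgeR adjusted p = 0.00019), followed by DUSP5 (0.015), ETV5 (0.038) and SPRED1 (0.041). Cal51 was set against the mean of the other 3 wild-type responses. There DUSP5 was higher by 0.55 ± 0.14 (edgeR adjusted p = 0.015) and DUSP6 lower by 0.99 ± 0.19 (-0.99, adjusted p = 0.0013), which is 2 of 10 members where 13.9% of all genes passed (6.53% higher and 7.38% lower). For SPRED1 the difference was 0.72 ± 0.30 (adjusted p = 0.13), and 0.48 without the 3 libraries that stand apart. The DUSP6 difference was -0.66 (adjusted p = 2.9e-05) without the libraries labelled DLD1 wild-type, where DUSP4 passed at 0.48 (adjusted p = 0.0044), and the DUSP5 difference was 0.34 (adjusted p = 0.073) by library totals. Leaving out either the first Cal51 DMSO or the second Cal51 OTS964 library also cost the DUSP5 call, at 0.40 (adjusted p = 0.16) and 0.41 (adjusted p = 0.14).

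Before treatment, Cal51 held much less DUSP4 than the other wild-type lines. DUSP4 stood at 34.8 and 33.8 CPM in wild-type Cal51 DMSO libraries, against 451 and 475 CPM in A375, 380 and 378 CPM in MDA-MB-231 and 268 and 357 CPM in the DLD1 label. The difference from the mean of the others was -3.47 ± 0.37 on the log2 scale (edgeR adjusted p = 1.4e-07). SPRED2 was higher in Cal51, at 117 and 106 CPM against 45.3 to 56.4 CPM elsewhere (1.12 ± 0.23, adjusted p = 0.0004). SPRED1 (-0.66 ± 0.22, adjusted p = 0.016) and ETV4 (-0.33 ± 0.11, adjusted p = 0.012) were lower. In all 4 of 10 members passed, where 50.3% of all genes did (26.2% higher and 24.1% lower). DUSP5, DUSP6, SPRY2 and ETV5 did not pass, at 0.02, 0.20, -0.13 and -0.01. Leaving out 1 of the wild-type Cal51 DMSO libraries cost the SPRED1 call in either case (-0.71 and -0.61, adjusted p = 0.074 and 0.12), and leaving out the second cost that of ETV4 (-0.24, adjusted p = 0.20). Without the libraries labelled DLD1 wild-type, ETV4 was at 0.02 (adjusted p = 0.95) and DUSP6 at 0.28 (adjusted p = 0.0004).

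With G579S cells in place of wild-type, 6 of 10 members set Cal51 apart under DMSO, where 51.1% of all genes did (30.1% higher and 21.0% lower). DUSP4 was again lower, by -2.12 ± 0.34 (edgeR adjusted p = 2.8e-05), although DLD1 G579S held it at 30.0 and 30.4 CPM, next to Cal51 at 33.9 and 28.5 CPM. DUSP5 (-1.06 ± 0.11, adjusted p = 1e-07) and SPRED1 (-0.78 ± 0.22, 0.0059) were lower, and DUSP6 (0.58 ± 0.13, 0.00092) and SPRY2 (1.15 ± 0.37, 0.013) higher. SPRY1 was higher by 4.66 ± 0.89 (adjusted p = 0.0002), from 1 library at 89.9 CPM beside a replicate at 2.33 CPM, and was 0.36 (adjusted p = 0.88) without the former. SPRED1 and SPRED2 in that library stood at 27.2 and 31.6 CPM, against 52.6 and 87.2 CPM in its replicate, and without it SPRED1 was at -0.38 (adjusted p = 0.22). SPRY2 without it was 1.07 (adjusted p = 0.085). Without the DLD1 G579S libraries, DUSP4 was at -3.20, DUSP5 at -0.58, DUSP6 at 1.34 and SPRY2 at 0.35.

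On the TPM scale, which allows genes to be compared per length, the 10 members had different orders by line. DUSP4 led in wild-type A375, at 132 TPM (mean of 2 libraries), and in wild-type MDA-MB-231, at 122 TPM, where DUSP6 was close at 120 TPM. In wild-type Cal51 DUSP6 led at 150 TPM, and DUSP4 came ninth at 11.3 TPM. In the libraries labelled DLD1 wild-type, ETV4 and SPRY2 led at 152 and 142 TPM, whereas in DLD1 G579S DUSP6 led at 448 TPM and SPRY2 stood at 17.7 TPM. SPRY1 was last in each wild-type line, at 0.374 to 4.00 TPM.

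Between genotypes under DMSO, the count of members that passed ran from 0 in A375 to 9 under the DLD1 label. Over lines, 4 of 40 pairs of a member and a line were higher in G579S and 9 lower, where 10.0% and 10.8% of all pairs were. No member passed in A375, where 9.77% of all genes did, and 1 passed in MDA-MB-231, where 7.30% did (DUSP6, -0.56 ± 0.17, edgeR adjusted p = 0.044, lost in 26 of the 32 fits that left out 1 library). DUSP4 in that line held 196 and 189 CPM in G579S against 380 and 378 CPM, which missed the threshold in edgeR (-0.98 ± 0.36, adjusted p = 0.12) and passed in DESeq2 (-0.95, adjusted p = 0.042). The largest A375 estimates were SPRY4, at 215 and 200 CPM in G579S against 72.0 and 70.4 CPM in wild-type (1.54 ± 0.93, adjusted p = 0.40), and SPRY2, at 199 and 205 CPM against 120 and 123 CPM (0.73 ± 0.47, adjusted p = 0.45). Their libraries did not overlap. Whether they passed depended on the 3 libraries that stand apart, none of them from A375, in a fit that estimates spread over all groups. Those libraries were chosen after their values were seen, so the fit without them is no test of these differences. At an unadjusted p under 0.05, 1 member differed in A375, and DESeq2 called 0, counts given without the shares of all genes. In Cal51, 3 members passed, where 17.0% of all genes did: DUSP6 higher (0.73 ± 0.16, edgeR adjusted p = 0.0043), DUSP5 lower (-0.71 ± 0.13, 0.00063) and SPRED2 lower (-0.91 ± 0.30, 0.043). SPRED2 was at -0.36 (adjusted p = 0.43) without the second Cal51 G579S DMSO library and at -1.82 (3.2e-05) without the first, and its call was lost in 26 of the 32 fits that left out 1 library. DUSP6 missed the threshold without the second wild-type Cal51 DMSO library, at 0.67 (adjusted p = 0.061). In the comparison labelled DLD1, 9 members passed, where 49.2% of all genes did, and the marker sums given above differ between the same libraries. The SPRY4 and SPRED2 calls did not hold in every fit that left out 1 library (-2.67 to -2.36 and 0.89 to 1.01). There DUSP4 stood at 30.0 and 30.4 CPM in G579S against 268 and 357 CPM, SPRY2 at 20.3 and 19.3 CPM against 166 and 174 CPM, and DUSP6 at 691 and 696 CPM against 224 and 206 CPM. Differences of genotype and of cell identity cannot be told apart there.

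SPRED2 changed not only its total but its transcripts. Shares of the reads of each gene were tested over 6403 genes with several matched transcripts, of which 390 (6.09%) passed in wild-type cells, among them 2 members, SPRED2 (edgeR diffSpliceDGE, Simes adjusted p = 4.9e-06) and DUSP4 (0.00025). The main SPRED2 transcript, NM_181784.2, held 94.3% to 98.2% of the gene's reads under DMSO in wild-type cells and 28.8% to 77.3%, median 42.1%, under OTS964. XM_005264200.2, a predicted transcript of 1367 bases against 4442, gained share. It was listed at 0 reads in 7 of 8 wild-type DMSO libraries, with 8.1 reads in the other. With OTS964 it held 62.3% and 49.7% of SPRED2 reads in A375, 46.8% and 55.3% in Cal51 and 69.5% and 59.8% in the DLD1 label, and was listed at 0 in both MDA-MB-231 libraries. These shares rest on 73.7 to 152.5 reads of that transcript. In G579S cells with OTS964 it was listed at 0 in 7 of 8 libraries and at 12.7 reads in the other. In MDA-MB-231 wild-type, NM_181784.2 still fell from 945.7 and 1046.3 reads to 162.2 and 54.6 reads, out of 209.7 and 96.9 SPRED2 reads. The other predicted transcript, XM_005264202.2 of 2146 bases, held 1.1% to 3.3% of SPRED2 reads over the wild-type DMSO libraries. Under OTS964 it held 0% to 43.7%, median 5.8%, from at most 47.5 reads. Its log2 change relative to the gene, 1.11, did not pass (diffSpliceDGE adjusted p = 0.84).

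In DUSP4, the second transcript, NM_057158.3, gained share. It held 0% to 0.8% of DUSP4 reads in wild-type DMSO libraries and 1.7% to 36.9%, median 5.2%, with OTS964. The share was highest in MDA-MB-231, at 30.6% and 36.9%, and in the first library of the DLD1 label, at 33.5%, against 3.1% in its replicate. In MDA-MB-231 G579S with OTS964 it stood at 7.3% and 6.2%, above its controls at 0.3% and 1.3%. Relative to the gene, its log2 change in wild-type cells was 2.96 (adjusted p = 0.0003 over transcripts). Of the other members with several transcripts, SPRY1, DUSP6, SPRED1, ETV4 and SPRY4 did not pass, with adjusted p-values from 0.14 to 1. Transcript reads are estimates in which reads shared by several transcripts are divided, and only listed transcripts can receive reads.

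**Figure D3:**
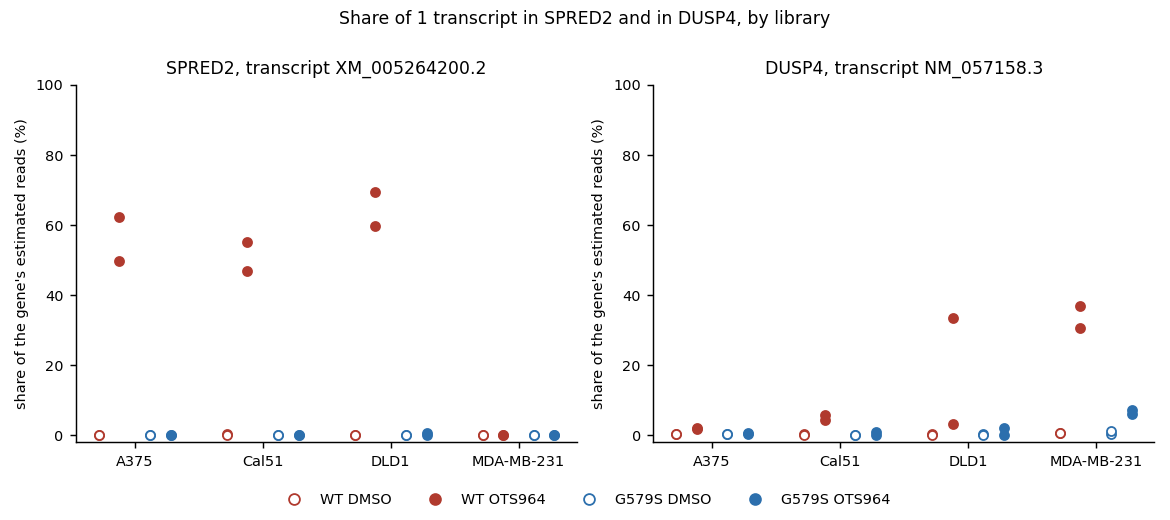
Share of the gene's estimated reads on 1 transcript of SPRED2 (left) and 1 of DUSP4 (right), in percent on the vertical axis, for each library by line; red is wild-type, blue G579S, open DMSO and filled OTS964. The SPRED2 transcript is near 0 except with OTS964 in wild-type A375, Cal51 and the DLD1 label, where it reaches 69.5%; the DUSP4 transcript is highest in wild-type MDA-MB-231 with OTS964, at 30.6% and 36.9%.

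Counts for the other genes of the pathway depended on the scale. In wild-type cells, 29.9% of all genes were higher and 32.0% lower by TMM, 14.1% and 49.7% by library totals, and 7.58% and 58.3% on log2(TPM + 1), and the lists are read against these shares. Of 32 genes of the cascade itself, from receptors to ERK's nuclear targets, 14 were higher and 13 lower in wild-type cells (median log2 change 0.13, against -0.06 for all genes), but by library totals 3 were higher and 19 lower, and on log2(TPM + 1) 0 and 25. These are 43.8% and 40.6% of the list by TMM, 9.38% and 59.4% by library totals and 0% and 78.1% on log2(TPM + 1). The 4 with the largest changes fell on each of these scales: KSR1, a scaffold that brings RAF to MEK (-4.12 ± 0.79, edgeR adjusted p = 0.00037), GAB1, a receptor docking protein (-2.93 ± 0.86, 0.0083), SOS1, the exchange factor that loads RAS with GTP (-2.79 ± 0.65, 0.0018), and ELK4, an ETS factor that ERK phosphorylates (-2.77 ± 0.19, 2.3e-08). SOS1 went from 38.9 ± 7.34 to 5.52 ± 3.88 CPM and ELK4 from 71.4 ± 5.88 to 10.2 ± 3.85 CPM (SD over n = 8 libraries). In G579S cells, 0 of the 32 passed by edgeR, where 2.82% of all genes did. DESeq2 called 1 higher and 1 lower, where it called 6.29% and 6.47% of all genes. At an unadjusted p under 0.05 there were 4, a count without the share of all genes beside it.

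Of 18 other negative regulators, 4 were higher and 5 lower (median -0.44), against 3 and 11 by library totals and 2 and 11 on log2(TPM + 1). The TMM counts are 22.2% and 27.8% of the list, near the shares of all genes, and those by library totals 16.7% and 61.1%. CBL, a ubiquitin ligase for receptors, fell from 99.0 ± 12.7 to 29.4 ± 11.2 CPM (SD, n = 8; log2 change -1.82 ± 0.18, edgeR adjusted p = 6e-07), and ERRFI1, an EGFR inhibitor, from 318 ± 39.4 to 97.7 ± 46.0 CPM (-1.70 ± 0.24, 2.2e-05). RGS2, a brake on G-protein signalling, rose from 20.6 ± 23.0 to 198 ± 306 CPM (1.92 ± 0.51, edgeR adjusted p = 0.0046), with a wide spread, and did not pass on log2(TPM + 1), at 0.84 (limma adjusted p = 0.092). SPRY3, the remaining Sprouty gene, was scarce, at 0.589 ± 0.435 and 0.14 ± 0.111 CPM (-1.80 ± 0.48, 0.0067). SPRED3 was listed at 0 in all 8 wild-type OTS964 libraries and had no call. Of 24 other genes that ERK is known to induce, 12 were higher and 5 lower (median 0.78), against 8 and 8 by library totals and 6 and 10 on log2(TPM + 1). The higher ones are 50.0%, 33.3% and 25.0% of the list on these scales, each above the share of all genes. The lower ones are 20.8%, 33.3% and 41.7%, each below it. Because the list was chosen with earlier results of these data known, these shares are a description and no test of enrichment. EGR1, an immediate early transcription factor, had a log2 change of 3.34 ± 0.70 (edgeR adjusted p = 0.00076). Its level went from 17.9 ± 8.61 to 392 ± 729 CPM (SD, n = 8), a wide spread. MYC had a log2 change of 3.13 ± 0.27 (edgeR adjusted p = 1.8e-07) and PHLDA1, a pleckstrin-domain protein, of 1.91 ± 0.14 (3.9e-08), while ELL2, an elongation factor, fell by 2.61 ± 0.79 (0.011). In G579S cells, EPHA2 (0.53 ± 0.09, edgeR adjusted p = 0.014) and MYC (0.39 ± 0.08, 0.025) rose, and none of the 24 passed as lower by edgeR. Among all genes, 1.37% were higher and 1.46% lower there. In the plot of the pathway lists the 10 members run from -2.49 to 2.22 and these 24 genes from -2.61 to 3.34. A range widens with the number of genes, so the widths of these ranges were not compared.

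**Figure D4:**
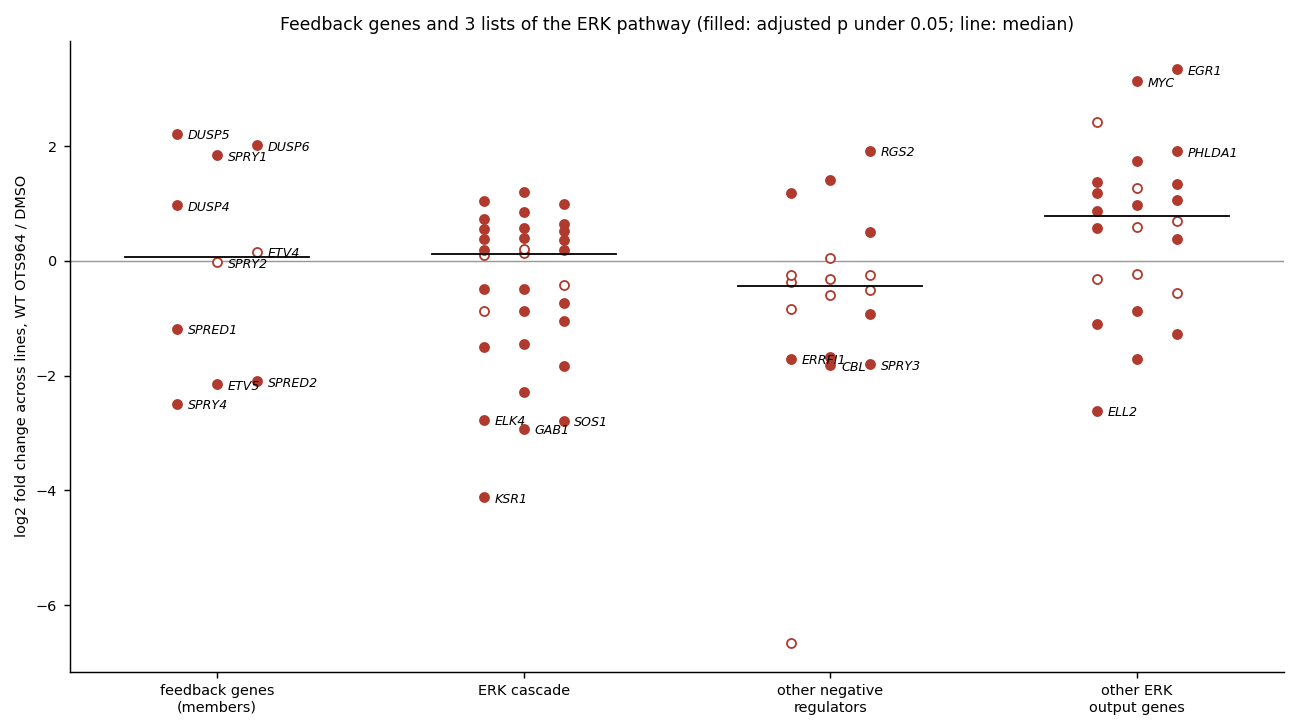
Log2 fold change across wild-type lines, OTS964 over DMSO (vertical axis), of the 10 feedback genes and of 3 lists of the ERK pathway (horizontal axis); each point is a gene, filled where the adjusted p was under 0.05 by TMM scaling, and the black line is the list's median, which was lower by library totals and on log2(TPM + 1). Members run from -2.49 (SPRY4) to 2.22 (DUSP5); ETV4 and DUSP4 depend on the scale, and the lowest open point, SPRED3, is a fitted value for a gene listed at 0 in all treated libraries.

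Across all 32 libraries, levels of members moved in 2 directions, as a description of points that share lines and treatments. DUSP5 and DUSP6 had a Pearson r of 0.71 in log2 CPM, and DUSP5 and ETV5 of -0.88. ETV5 and SPRED2 had an r of 0.79, and SPRY4 and ETV5 of 0.70, while DUSP4 and DUSP5 had only 0.09. The genes with the highest r to DUSP5 were GADD45B (0.934), MYC (0.923) and YOD1 (0.922), and those to DUSP6 were TM9SF2 (0.896), PABPC1 (0.872) and FARSB (0.871). ETV5 was most like SRPK2 (0.972), AKIRIN1 (0.970) and ZMYND19 (0.970), and SPRY4 most like TMEM263 (0.897), MTNAP1 (0.891) and TDG (0.886).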

How the data were processed

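Transcript tables of 32 libraries of 4 established cell lines were used. Estimated counts (reads per transcript, not whole numbers) and TPM values were deposited by the authors, per the file headers. RNA was column-purified and made into libraries with an mRNA kit, per the labels' protocols. The sources used here name no quantification tool. The submitters' processing notes name mouse builds, whereas identifiers match human RefSeq, so no coordinates were taken from the files. Identifiers were matched without version. The 12.4% of reads, on average, that fell on unmatched identifiers were left out. Estimated counts were summed per gene and rounded. The test was that of edgeR 4.0.16, run under R 4.3.3 (quasi-likelihood, TMM, filterByExpr, Benjamini-Hochberg, threshold 0.05), across lines with the line as a block, and within lines in 1 fit of 16 groups with 16 residual degrees of freedom. SE are those of the fitted log2 fold changes. Transcript shares were tested with diffSpliceDGE. DESeq2 1.42.0, limma 3.58.1 on log2(TPM + 1) and log2(TPM + 0.1), library totals, no filter, curated identifiers, length-scaled counts, a replicate block and left-out libraries were alternatives. The scripts were tested on simulated data.

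Members and lists were chosen with earlier results of these data known. All 10 members are described. From each pathway list the 4 genes with the largest absolute change among those past the threshold in wild-type cells are named, and for DUSP5, DUSP6, SPRY4 and ETV5 the 3 genes of highest Pearson r. The pair of genes that rose in G579S cells was named after its values were seen. Counts of the pathway lists on other scales, and single calls within a line with 1 library left out, were added after seeing the data. Replicates of every group differed beyond sampling noise, and none were identical.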

Additional observations from a re-analysis of the deposited data

Results flagged for a closer look

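Responses of the 4 wild-type lines to OTS964 were unequal for 4 members, by an F test of the difference itself in edgeR with Benjamini-Hochberg adjustment: DUSP6 (adjusted p = 0.00019), DUSP5 (adjusted p = 0.015), ETV5 (adjusted p = 0.038) and SPRED1 (adjusted p = 0.041). DUSP6 changed least in Cal51 and most under the DLD1 label, ETV5 least in MDA-MB-231, and SPRED1 least in Cal51 and most in MDA-MB-231. The response of Cal51 minus the mean of the other 3 lines was 0.55 on the log2 scale for DUSP5 and -0.99 for DUSP6, each tested as a difference of responses. Libraries labelled DLD1 wild-type are in all 6 of these comparisons and went against their label by markers, and the part of this in the results was not tested beyond the values without them given above.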

How the results depend on the processing

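Counts of members in this section stand without the share of all genes under the same setting, apart from shares given in the results. They do not show whether members moved more than other genes did. Leaving out 1 library at a time moved several counts of members. Pairs of a G579S response and a line ranged from 1 to 6 higher and 1 to 2 lower, and members across G579S lines from 0 to 3 higher and 0 to 1 lower. Cal51 against the other lines gave 0 to 5 members with a higher response, 1 to 3 lower wild-type DMSO levels and 1 to 3 higher G579S DMSO levels. Members with unequal wild-type responses ranged from 1 to 7. Single estimates that changed sign were SPRY2 in wild-type cells (-0.32 to 0.14), SPRY1 (-1.13 to 0.13) and SPRED1 (0.00 to 0.17) in G579S cells, and, for Cal51 against the others, SPRY2 response (-0.30 to 0.70), wild-type levels of DUSP5 (-0.14 to 0.17), SPRY2 (-0.30 to 0.03) and ETV5 (-0.19 to 0.15), and G579S levels of SPRED2 (-1.08 to 0.38) and ETV4 (-0.16 to 0.19).

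With limma on log2(TPM + 1) and on log2(TPM + 0.1) alike, 7 pairs of member and line were higher in wild-type cells and 1 in G579S cells, 2 members were higher in wild-type cells, 2 in wild-type minus G579S, and 1 higher and 1 lower in G579S cells. Cal51 DMSO levels then had 2 members higher and 1 lower, and log2(TPM + 0.1) left 0 members with a higher Cal51 response. The estimates that changed sign on these 2 scales were wild-type DUSP4 (-0.01 and 0.00) and ETV4 (-0.70 and -0.71), G579S DUSP4 (-0.05 on both), SPRED1 (-0.01 and 0.00) and ETV5 (-0.01 on both), ETV4 in wild-type minus G579S (-0.30 on both), and, for Cal51, the ETV4 response (-0.05 on both), wild-type levels of SPRY2 (0.00 on both) and ETV5 (0.11 and 0.12) and the G579S level of ETV4 (-0.01 on both).

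By library totals, 2 members were higher in wild-type cells, 3 in wild-type minus G579S and 0 in the Cal51 response, and 1 was higher and 1 lower in G579S cells. Signs changed for wild-type ETV4 (-0.44), G579S DUSP4 (-0.04) and SPRED1 (-0.02), ETV4 in wild-type minus G579S (-0.03), the Cal51 ETV4 response (0.00) and the Cal51 wild-type ETV5 level (0.04). DESeq2 gave 4 pairs higher and 2 lower in G579S lines, 1 member lower across them, and wild-type SPRY2 at 0.03. Curated identifiers left 2 members with unequal responses and the Cal51 ETV5 level at 0.01.

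Without the DLD1 libraries, 0 members passed in G579S cells, and 2 were higher in the Cal51 response and 2 in its wild-type level. Signs changed for wild-type SPRY2 (0.00), G579S SPRY4 (0.02) and SPRED1 (-0.03), Cal51 wild-type levels of DUSP5 (-0.10), SPRY2 (0.18), ETV4 (0.02) and ETV5 (0.09), and Cal51 G579S levels of SPRED2 (0.06), ETV4 (-0.17) and ETV5 (-0.18). Without the 3 libraries that stand apart, a setting chosen after seeing the data, 7 pairs were higher in G579S lines, 7 were higher in G579S minus wild-type, 4 members were higher and 2 lower in the Cal51 response, 4 were higher in its wild-type level and 9 had unequal responses. Signs changed for wild-type SPRY2 (0.18), G579S SPRY1 (0.13) and SPRED1 (0.00), and Cal51 G579S levels of SPRED2 (0.38) and ETV4 (-0.16).

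Replicate numbers did not pair the samples: deviations of same-numbered libraries correlated between -0.03 and 0.07. With a replicate block, 0 members passed in G579S cells (DUSP5 at 0.32, edgeR adjusted p = 0.19, and DUSP6 at 0.38, 0.18), and the Cal51 SPRY2 response (0.06) and G579S ETV5 level (-0.11) changed sign. Causes of these changes were not tested. With 2 libraries a group, values of SPRY1, at a few CPM in most libraries, and of the SPRED2 transcript XM_005264200.2, at up to 152.5 reads under OTS964, are imprecise.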
